A study of Homo sapiens with 6 samples.

Results

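Respiratory complex I is built from nuclear and mitochondrial gene products, and 35 of its nuclear subunit genes, chosen by their symbols, were read from a table of 28058 genes. All 35 symbols were found there. RNA had been sequenced from MDA-MB-231, an established human line from a triple-negative breast adenocarcinoma grown in 21% O2. The cells carried a control short hairpin RNA (shCTL, 3 libraries) or one against HSF1, the main transcription factor of the heat shock response (shHSF1, 3 libraries). The comparison asked how expression differs when HSF1 is lowered. All 6 column names carry the letters TGL and, as well, the letters cl before the replicate number. No source used here explains either, so whether the libraries are clones or cultures of a modified line is not known. The labels name no shRNA sequence and do not say whether the libraries of a group came from separate cultures. The p-values therefore speak for variation among these 6 libraries alone, and part of that variation may be technical.

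Complex I sits in the inner mitochondrial membrane, where it takes electrons from NADH, passes them through iron-sulfur clusters to ubiquinone and pumps protons. It has the shape of an L, with a matrix arm that carries the electron path and a membrane arm that pumps. A small set of core subunits is conserved from bacteria and does the chemistry, and a larger set of accessory subunits, added in evolution, stabilises the complex and is needed to assemble it. Its subunit genes are scattered over the genome, and the 35 genes studied here lie on 18 chromosomes.

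Levels are RPKM (reads per kilobase of gene and per 1000000 assigned reads), and the reads assigned to genes ranged from 33988307 to 70449758 per library. HSF1 itself fell from 54.1 ± 6.70 to 4.52 ± 0.604 RPKM (SD, n = 3, limma adjusted p = 3.78e-06), with an exact two-sided permutation p of 0.1, the smallest that 10 arrangements of the group labels allow. Of the epithelial markers, KRT8, KRT18 and KRT19 were high (29.97 RPKM or more in every library), EPCAM lay at 4.48 to 10.1 RPKM, and CDH1 was near 0 (at most 0.0422 RPKM). Among the mesenchymal markers VIM reached at least 1891 RPKM and ZEB1 at least 17.4 RPKM, while CDH2 was at most 0.310 RPKM. The hormone receptor genes ESR1 and PGR were at most 0.161 RPKM, and ERBB2 lay at 6.60 to 10.9 RPKM. The leukocyte markers PTPRC and CD3E and the endothelial markers PECAM1 and CDH5 were each at most 0.281 RPKM, while CD68, also listed as a leukocyte marker, lay at 68.4 to 103 RPKM. EPCAM rose 1.79-fold, while KRT18 and ERBB2 fell 1.38-fold and 1.34-fold (limma adjusted p = 0.00381, 0.0183 and 0.0275). The part of these shifts in the results on complex I was not tested.

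Most complex I subunits were slightly lower in shHSF1, and few of them passed the main test, which left pairing of libraries out. Of the 35 subunits, 34 were expressed well enough to be tested (at least 0.5 RPKM in at least 3 libraries), and their median log2 fold change was -0.14 against 0.04 for all 12433 tested genes. At a limma adjusted p under 0.05, 6 subunits fell (NDUFB9, NDUFB3, NDUFC1, NDUFS1, NDUFA10 and NDUFA1). No subunit rose by limma or by limma with voom on recovered reads, and 0 rose at an unadjusted p under 0.05. Over all tested genes 33.8% were called, 16.1% lower and 17.7% higher, so the 17.6% of subunits called lower were near the background share of lower calls. All fold changes labelled log2 were taken after adding 0.5 RPKM, so those of genes at low levels are slightly understated. In bulk RNA, less RNA per cell and fewer cells that hold it cannot be told apart.

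The small shift was spread over the members. The log2 fold change was below 0 for 26 of 34 subunits (76.5%), against 44.6% of all tested genes. It was also below 0 for 29 of 39 nuclear subunits of complexes II, III and IV and of ATP synthase. In each of the 3 same-numbered pairs of libraries 18 complex I subunits were lower, while 3 were higher in each. The share of all tested genes with such pairs was not computed, so these 2 counts have no background beside them. In 12 subunits every shHSF1 library lay below every shCTL library (35.3%, against 21.8% of all tested genes), and in 0 every shHSF1 library lay above (against 25.6%). Libraries of the same replicate number deviated together from their group means. With the number as a block 12 subunits were lower and 1, NDUFA5, was higher. In that fit 48.3% of all tested genes were called, 22.1% lower and 26.2% higher. Of the 6 libraries, shHSF1 3 was the lowest for 20 subunits and shHSF1 2 for 7, and without shHSF1 3 the median over the subunits was -0.048.

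As a share of all reads assigned to genes, the 35 subunits together took 0.179%, 0.171% and 0.169% in the shCTL libraries and 0.159%, 0.154% and 0.144% in the shHSF1 libraries. The shares did not overlap between the groups. Levels of single subunits, which are per length, differed far more from each other than between groups. In shCTL they ran from 197 ± 9.51 RPKM for NDUFS5 down to 7.65 ± 0.166 RPKM for NDUFA10 (SD, n = 3), NDUFA6 apart. NDUFS5, NDUFA12 (184 ± 4.57), NDUFA1 (169 ± 2.07) and NDUFV2 (123 ± 1.17 RPKM) kept this order in shHSF1. In the middle of the order, NDUFAB1, NDUFB5, NDUFS1, NDUFB6, NDUFB1 and NDUFS6 lay between 55.0 and 51.1 RPKM in shCTL, with SDs of up to 5.43 RPKM, and neighbours there did not differ beyond their spread. In shHSF1, NDUFB9 went from rank 7 to rank 19, NDUFB3 from 9 to 16 and NDUFS1 from 12 to 18. Lengths count every listed exon of a gene, so the long entries of NDUFA10 (9730 bases) and NDUFA5 (6506 bases) have lower RPKM values than a short main transcript would give.

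**Figure D1:**
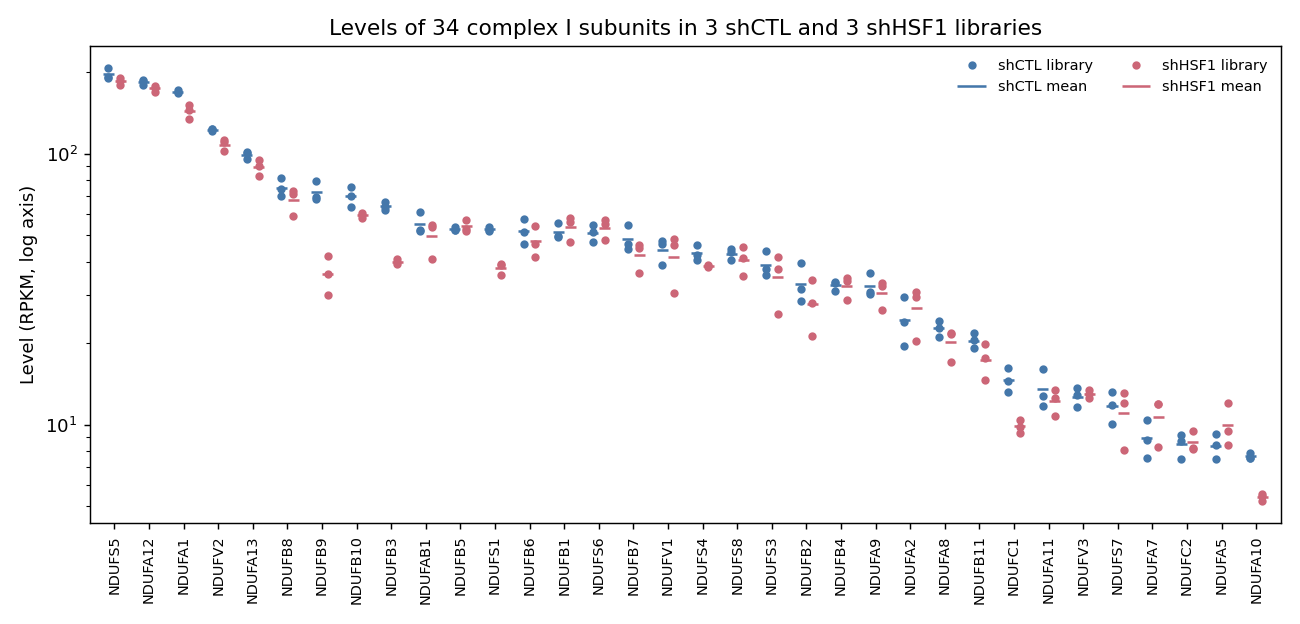
Levels of the 34 tested complex I subunits (RPKM, log axis), ordered by their shCTL mean, with 1 point per library (blue shCTL, red shHSF1) and a line at each group mean. The span from NDUFS5 (197 RPKM in shCTL) to NDUFA10 (7.65 RPKM) is far wider than the gap between groups, which is clearest for NDUFB9, NDUFB3, NDUFS1, NDUFC1 and NDUFA10.

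All 3 subunits encoded on chromosome 2 fell, and no subunit of the set lies on chromosome 15. NDUFB3, a small accessory protein of the membrane arm (chromosome 2, 201071739 to 201085751, hg38), stood at 66.4, 61.9 and 63.7 RPKM in shCTL and 39.8, 39.2 and 41.1 RPKM in shHSF1. The groups were far apart and each was tight, with a log2 fold change of -0.67 (SE 0.0646, limma adjusted p = 0.000267). NDUFS1 (206123079 to 206159519) encodes the largest core subunit, which holds iron-sulfur clusters of the matrix arm. It stood at 52.4, 53.7 and 51.9 RPKM in shCTL and 35.8, 38.8 and 39.3 RPKM in shHSF1. Again the groups did not overlap (log2 fold change -0.47, SE 0.0679, limma adjusted p = 0.00167). NDUFA10 (239892451 to 240025402), an accessory subunit that resembles nucleoside kinases, stood at 7.56, 7.85 and 7.55 RPKM in shCTL and 5.56, 5.47 and 5.23 RPKM in shHSF1. It fell 1.41-fold (log2 fold change -0.46, SE 0.0811, limma adjusted p = 0.00403), from 10867 reads in the shCTL group and 6095 in shHSF1. Dropping each library in turn ended none of these 3 calls (limma adjusted p at most 0.0232).

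The chromosome 2 subunits had a median log2 fold change of -0.47, and the 31 tested subunits on other chromosomes had -0.13. The second value rests largely on single libraries, at -0.039 without shHSF1 3 and -0.067 without shCTL 1, while the first stayed between -0.49 and -0.45 whichever library was dropped. Of those 31, 3 fell (9.68%, against 16.1% of all tested genes called lower, a share that includes the genes of chromosome 2). The summed level of the chromosome 2 subunits went from 124 ± 1.75 to 83.4 ± 2.23 RPKM (SD, n = 3) and that of all the other subunits from 1714 ± 64.6 to 1552 ± 99.0 RPKM. Chromosome 2 as a whole was shifted in the same direction, though not evenly along its length. Of its 851 tested genes 334 were lower and 80 higher, with a median of -0.21, yet around COX5B, also on chromosome 2, the window median was 0.097. Chromosome 4, which holds NDUFC1, was lower still, with 268 of 468 lower, 19 higher and a median of -0.39. On chromosome 15 209 of 394 were higher and 27 lower, with a median of 0.41.

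Genes next to the chromosome 2 subunits were lower to a similar degree. For each subunit, the 40 nearest tested genes of its chromosome, 20 on each side, gave a median log2 fold change. This median was -0.49 around NDUFB3, -0.53 around NDUFS1 and -0.38 around NDUFA10, and 30, 29 and 20 of the 40 neighbours were called lower. The windows of NDUFB3 and NDUFS1 share 15 genes, and that of NDUFA10 shares 0 with either. NDUFS1 fell by slightly less than its neighbours' median, and NDUFB3 and NDUFA10 by slightly more. With the shHSF1 values centred on each gene's window, the call ended for NDUFB3 (limma adjusted p = 0.0714), NDUFS1 (0.522) and NDUFA10 (0.498). Their median was then -0.08, and that of the subunits on other chromosomes was -0.16. That test takes the window median as known, so its p-values leave out the error of the median. With the replicate block as well, NDUFB3 was called (adjusted p = 0.0292). Centring and block together gave 14 lower subunits, beside 21.7% of all tested genes.

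The stretches upstream of the called subunits NDUFA10, NDUFS1 and NDUFA1 are shown. Each of these has a RefSeq promoter window on GRCh38.p14 reaching beyond the first exon in the table. Those of the other called subunits are not shown. Only bases upstream of every exon listed for the gene are given, 5′ to 3′ on the gene's strand, and capitals mark a match to one of 4 motifs searched on both strands.
NDUFA10, chr2:240025403-240025592, minus strand: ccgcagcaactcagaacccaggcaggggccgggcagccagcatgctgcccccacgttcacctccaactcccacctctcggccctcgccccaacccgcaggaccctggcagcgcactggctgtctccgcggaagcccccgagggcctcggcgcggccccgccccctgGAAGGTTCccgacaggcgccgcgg
NDUFS1, chr2:206159520-206159694, minus strand: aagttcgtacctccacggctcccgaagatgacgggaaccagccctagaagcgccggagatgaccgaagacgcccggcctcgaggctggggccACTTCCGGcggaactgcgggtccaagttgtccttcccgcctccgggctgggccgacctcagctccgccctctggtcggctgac
NDUFA1, chrX:119871582-119871770, plus strand: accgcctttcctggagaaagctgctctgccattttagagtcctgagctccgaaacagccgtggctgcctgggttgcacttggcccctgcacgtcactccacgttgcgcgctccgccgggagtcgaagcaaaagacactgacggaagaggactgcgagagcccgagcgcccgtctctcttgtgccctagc

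The capitals upstream of NDUFA10 match the heat shock element core GAANNTTC, the kind of site HSF1 is known to bind, and those upstream of NDUFS1 match the ETS motif CCGGAAGT, the kind that GABP binds, on the other strand. Promoter windows of 300 bases, 250 before and 50 after the start, were matched for 31 of the 35 subunits. GAANNTTC was found in 4 of these 31 (12.9%, NDUFA10, NDUFA12, NDUFAB1 and NDUFB11), and in 6.54% of the 9359 tested genes with a window. Of these 4 subunits NDUFA10 alone was called lower. The YY1 motif AAGATGGC was found in 6 of 31 (19.4%, against 6.89% of those tested genes). These were NDUFA6, NDUFA7, NDUFA9, NDUFB8, NDUFS4 and NDUFS7, and none of them is among the 6 called subunits. NDUFA6, counted in the 31, was not tested for expression and could not be called. CCGGAAGT was in 2 of 31 (6.45%, against 10.3%), and the palindromic motif of NRF1, a regulator of respiratory genes, in 2 of 31 (6.45%, against 2.76%). A match is a description of letters, not a site.

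The largest fall of all subunits was that of NDUFB9, an accessory protein of the membrane arm that pairs with the mitochondrial acyl carrier protein. NDUFB9 (chromosome 8, 124539102 to 124549986) stood at 79.3, 67.8 and 69.4 RPKM in shCTL and at 42.0, 36.0 and 30.2 RPKM in shHSF1. The lowest shCTL library was above the highest shHSF1 library by a wide margin, and the mean was 2.0-fold lower (log2 fold change -1.0, SE 0.125, limma adjusted p = 0.00088). Its 40 neighbours had a median of -0.30, with 17 called lower and 3 higher. The call was kept after centring on this median (limma adjusted p = 0.00547) and without any 1 library (at most 0.00497). That window is wide, and the genes close by were lower than its median. The 10 neighbours whose starts lie within 1 Mb, a distance chosen after the values were seen, had a median of -0.56, and 6 of them were called lower and 0 higher. Among them, also picked after their values were seen, were TATDN1 (-0.93), RNF139 (-0.78), WASHC5 (-0.65), TRMT12 (-0.62) and SQLE, a sterol synthesis enzyme (-1.98). SQLE aside, NDUFB9 was lower than each of these 10 neighbours, which ran from -1.98 to -0.10.

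NDUFC1, another small membrane-arm protein (chromosome 4, 139289917 to 139302551), stood at 16.2, 14.5 and 13.2 RPKM in shCTL and 10.4, 9.85 and 9.33 RPKM in shHSF1. The groups did not overlap (log2 fold change -0.54, SE 0.0966, limma adjusted p = 0.0042), and the call was kept without any 1 library (at most 0.0200). Around it 27 of 40 neighbours were called lower, 0 were called higher, and the median was -0.45. After centring the call ended (limma adjusted p = 0.522).

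**Figure D2:**
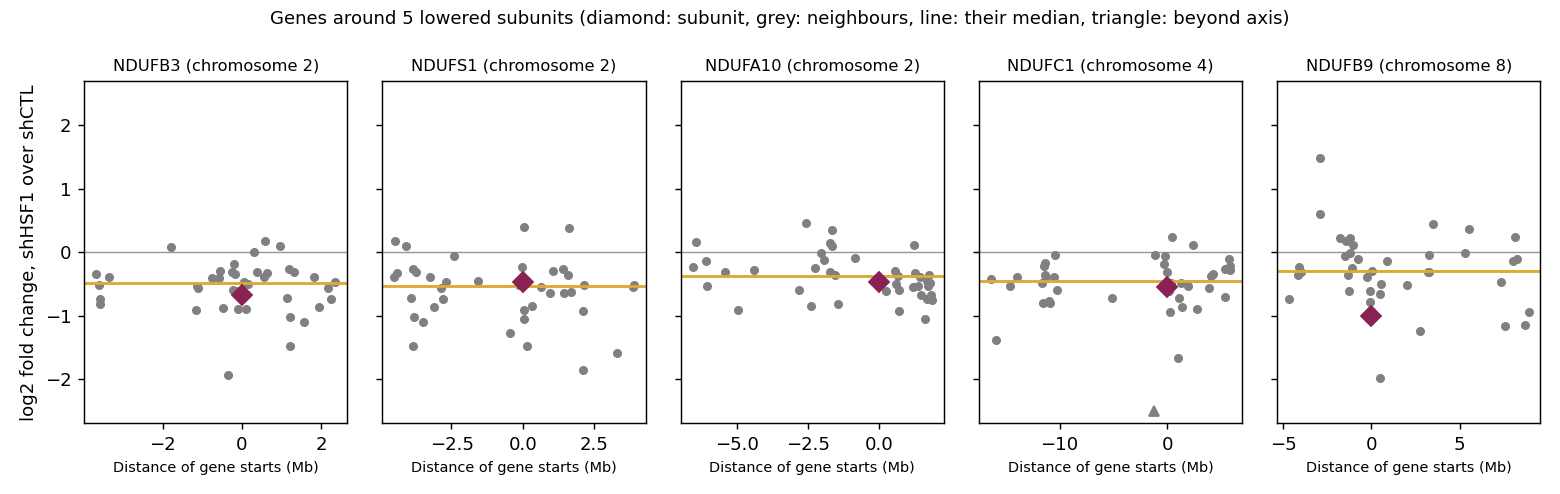
Log2 fold changes of 5 subunits (diamonds) and of the 40 nearest tested genes of each (grey), against the distance between gene starts in Mb, with a line at the neighbours' median. The diamonds of NDUFB3, NDUFS1, NDUFA10 and NDUFC1 lie near their lines (medians -0.49, -0.53, -0.38 and -0.45). That of NDUFB9 lies at -1.0, below its window median of -0.30. Among the genes within 1 Mb of it, only SQLE (-1.98) lies lower, and TATDN1 (-0.93) comes next.

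These 5 subunits were the ones with the lowest windows, and around the other 29 the window median ran from -0.11 (NDUFA7) to 0.30 (NDUFS4). Across the 34 subunits the log2 fold change and the window median had a Pearson correlation of 0.67 (Spearman 0.40), against 0.33 over all tested genes (Spearman 0.29). Without those 5, chosen here after their values were seen, it was -0.12 over 29 subunits (Spearman 0.04). Genes of 1 window share libraries and neighbours, so these are descriptions.

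NDUFA1, a small membrane-arm protein needed for assembly of the complex (chromosome X, 119871771 to 119876666), was the only called subunit outside such neighbourhoods. It stood at 172, 167 and 170 RPKM in shCTL and 151, 145 and 135 RPKM in shHSF1, so the groups were separate but the difference was small (1.18-fold). It fell by 0.24 on the log2 scale (SE 0.0701, limma adjusted p = 0.0325), beside a window median of 0.0056. The call was kept after centring (limma adjusted p = 0.0357) but was lost without shCTL 1, shCTL 2, shCTL 3, shHSF1 2 or shHSF1 3 (up to 0.112). NDUFA1 shares 58 exon bases with RNF113A on the opposite strand, which went from 19.6 to 20.5 RPKM, and no source used here says whether reads were counted by strand.

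**Figure D3:**
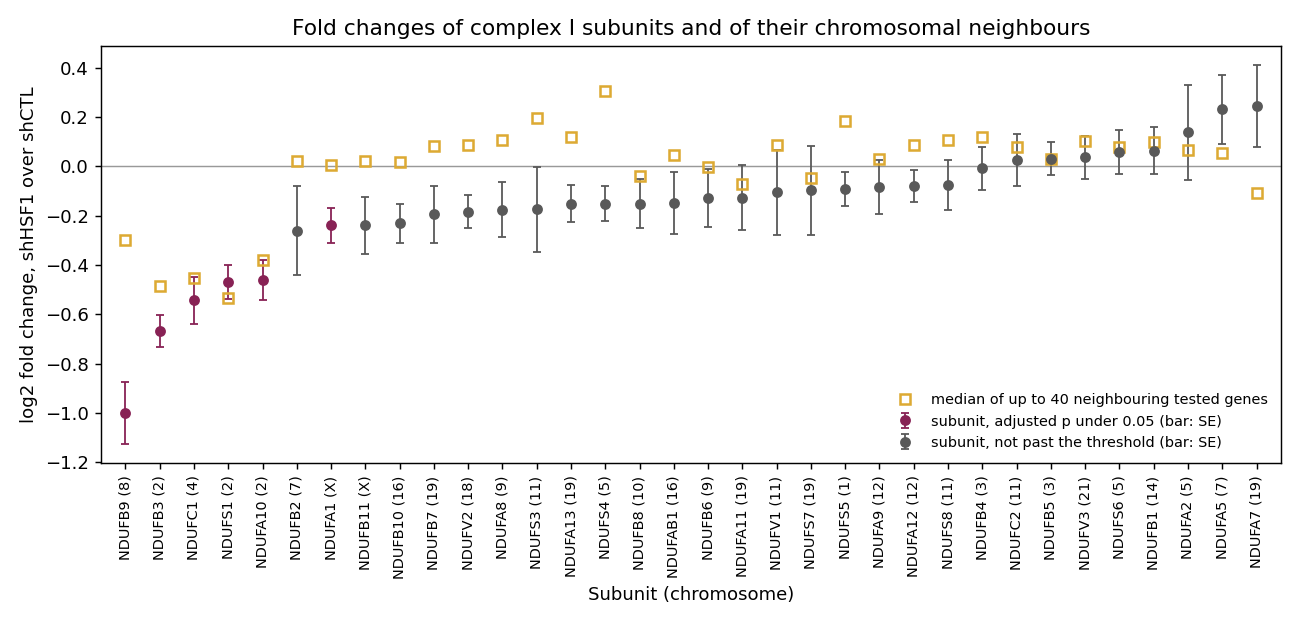
Log2 fold changes of the 34 tested subunits with their SE (circles, filled purple where the limma adjusted p was under 0.05) and the median of up to 40 neighbouring tested genes (open squares), with the chromosome in brackets. The 5 subunits on the left also have the lowest squares, from -0.53 to -0.30, and from NDUFB2 to NDUFA13 each circle lies below its square.

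Among the core subunits, NDUFS1 was the only one of 6 called (16.7%, against 33.8% of all tested genes). All 6 had a log2 fold change below 0 (median -0.14), as had 44.6% of all tested genes. NDUFV2, which carries an iron-sulfur cluster beside the site of NADH oxidation, stood at 122, 124 and 124 RPKM in shCTL and 110, 102 and 112 RPKM in shHSF1. The groups did not overlap, yet the limma adjusted p was 0.0693 (log2 fold change -0.18), with 0.0289 under the replicate block and 0.0205 after centring. NDUFV1, which binds NADH and the flavin, stood at 46.4, 47.5 and 38.9 RPKM in shCTL and 46.1, 48.6 and 30.7 RPKM in shHSF1. Replicate 3 of each group was its lowest library, and the groups overlapped (log2 fold change -0.11, limma adjusted p = 0.681). NDUFS3, NDUFS7 and NDUFS8, which lie on the path to ubiquinone, had log2 fold changes of -0.17, -0.10 and -0.08 with limma adjusted p of 0.487, 0.722 and 0.606. Without shHSF1 3 the values of NDUFS3, NDUFS7, NDUFS8 and NDUFV1 were above 0.

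In the matrix arm, 0 of 9 tested accessory subunits were called by limma, 0 by voom and 0 at an unadjusted p under 0.05, and their median was 0.04. Of all 12433 tested genes, limma called 33.8%. By voom 2307 of them were higher and 2062 lower, and at an unadjusted p under 0.05 2956 were higher and 2505 lower. NDUFS4, an assembly-critical subunit mutated in Leigh syndrome, stood at 42.3, 45.9 and 40.6 RPKM in shCTL and 38.5, 38.1 and 39.0 RPKM in shHSF1. Its groups were separate but its log2 fold change of -0.15 did not pass (limma adjusted p = 0.141), while its neighbours had a median of 0.30, and after centring it was called lower (adjusted p = 0.00315). NDUFA12 stood at 187, 179 and 186 RPKM against 178, 169 and 175 RPKM, also with no overlap (log2 fold change -0.08, limma adjusted p = 0.403). The highest values of all members were those of NDUFA7 (0.25) and NDUFA5 (0.23). NDUFA7 stood at 7.56, 10.4 and 8.78 RPKM in shCTL and 11.9, 11.9 and 8.29 RPKM in shHSF1, where shHSF1 3 fell within the shCTL range (limma adjusted p = 0.298, and 0.0474 without shHSF1 3). NDUFA5 stood at 7.51, 8.41 and 9.20 RPKM and then 8.44, 9.47 and 12.1 RPKM (limma adjusted p = 0.246, and 0.0416 under the replicate block), and 12 annotated pseudogenes carry its name. NDUFA2, NDUFS6 and NDUFV3 lay at 0.14, 0.06 and 0.04, and NDUFAB1, the acyl carrier protein of both arms, and NDUFA9, next to the ubiquinone site, at -0.15 and -0.08.

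NDUFA6, an accessory protein of the matrix arm, was listed at 0 in 5 libraries and at 0.00566 RPKM in shCTL 1, from 2 reads in all. Of its listed length of 5020 bases, 75.0% lies on alternate contigs, where its exons are listed again. It was under the expression filter and could not be compared.

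The membrane arm held 5 of the 6 called subunits, NDUFB9, NDUFB3, NDUFC1, NDUFA10 and NDUFA1, out of 19 tested (26.3%, against 16.1% of all tested genes called lower). Its median log2 fold change was -0.18. Under the replicate block 10 of the 19 were lower, beside 22.1% of all tested genes. Among those not called, NDUFB10 stood at 69.8, 63.7 and 75.7 RPKM in shCTL and 60.5, 59.2 and 58.0 RPKM in shHSF1. The groups were separate, with a log2 fold change of -0.23 and a limma adjusted p of 0.0577 (0.0274 under the replicate block). NDUFA13, also known as the cell death regulator GRIM-19, stood at 101, 102 and 95.3 RPKM against 94.7, 90.5 and 83.1 RPKM (log2 fold change -0.15, limma adjusted p = 0.158, 0.0472 under the replicate block and 0.0311 after centring). NDUFS5, a protein of the side that faces the intermembrane space, was the most abundant member at 208, 193 and 191 RPKM against 190, 179 and 186 RPKM. Its difference was small (log2 fold change -0.09, limma adjusted p = 0.363, and 0.0232 after centring), though the groups were just separate.

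The groups overlapped for the other membrane-arm subunits. NDUFB2 had the lowest log2 fold change of these (-0.26), at 39.4, 31.6 and 28.6 RPKM in shCTL and 34.3, 28.03 and 21.3 RPKM in shHSF1. Each pair of libraries went down but the spread within groups was wide (limma adjusted p = 0.313, and 0.0186 under the replicate block). NDUFB11 (-0.24) and NDUFB7 (-0.19) likewise passed under the block alone (adjusted p = 0.0415 and 0.0462). NDUFA8, NDUFB8, NDUFB6 and NDUFA11 lay between -0.18 and -0.13. The remaining 4, NDUFB4, NDUFC2, NDUFB5 and NDUFB1, lay between -0.01 and 0.06, and 12 pseudogenes carry the name of NDUFB4. NDUFC2 shares 785 exon bases with the readthrough gene NDUFC2-KCTD14, which held at most a trace of reads (0.00354 RPKM in shHSF1). On the opposite strand, NDUFB2 shares 140 exon bases with NDUFB2-AS1, NDUFA2 46 with TMCO6 and NDUFS3 6 with KBTBD4.

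After centring on neighbours, 6 subunits were called lower (NDUFB9, NDUFA1, NDUFV2, NDUFA13, NDUFS4 and NDUFS5), of which 2 had been called without it. In that fit 14.5% of all tested genes were called lower and 12.6% higher. The median over the subunits was -0.14, as before centring, and that over all genes was near 0.

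Other genes of the respiratory chain were compared through lists chosen by function. The 20 assembly factors of complex I, which help build the complex without staying in it, had a median of 0.09. Of these, 3 rose (15%, against 17.7% of all tested genes called higher). Under the replicate block 5 of the 20 were higher, beside 26.2% of all tested genes, with ECSIT (adjusted p = 0.0186) and DMAC2 (0.0271) added. NDUFAF3 rose 1.77-fold, from 7.67 ± 0.285 to 13.6 ± 3.38 RPKM (SD, n = 3, limma adjusted p = 0.013). Its libraries stood at 7.99, 7.44 and 7.58 RPKM in shCTL and 15.8, 15.1 and 9.67 RPKM in shHSF1, so that shHSF1 3 was nearest to the controls. LYRM2 rose 1.39-fold to 12.6 ± 0.519 RPKM (limma adjusted p = 0.00378), and NDUFAF6 1.38-fold to 2.16 ± 0.128 RPKM. Only without shCTL 1 was the NDUFAF6 call (limma adjusted p = 0.0375) kept, and without each of the other libraries it was lost (up to 0.101) and after centring (0.337). None of the 20 was called lower by limma or voom, and 1 was lower at an unadjusted p under 0.05. By limma 16.1% of all tested genes were called lower. NDUFAF1 is the 1 assembly factor on chromosome 15. It stood at 9.13 ± 0.420 and 9.32 ± 0.787 RPKM, with a log2 fold change of 0.02 beside a window median of 0.09.

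Nuclear subunits of complexes II, III and IV and of ATP synthase had a median of -0.10 over 39 genes, and of -0.15 after centring. By limma 6 were lower and 1 higher (17.9% called, against 33.8% of all tested genes). Under the replicate block 15 were lower and 1 higher, where 22.1% of all tested genes were lower and 26.2% higher. The 15 were 1 subunit of complex II, 4 of complex III, 5 of complex IV and 5 of ATP synthase. UQCR11, a small subunit of complex III, fell 2.03-fold to 10.1 ± 1.88 RPKM (SD, n = 3, limma adjusted p = 0.00294), beside a window median of 0.0014. It stood at 23.6, 20.6 and 17.1 RPKM in shCTL and 11.5, 10.7 and 7.96 RPKM in shHSF1, with a wide gap between groups. In ATP synthase 3 of 15 fell, ATP5ME 1.90-fold to 37.1 ± 5.96 RPKM (limma adjusted p = 0.000998, window median -0.19), ATP5MC3 1.69-fold on chromosome 2 (0.00245, window median -0.45) and ATP5MG 1.32-fold (0.0189, window median -0.24). ATP5MG was not called without shHSF1 2 (0.0511), and centring ended the calls of ATP5MC3 (0.0936) and ATP5MG (0.308). It kept those of UQCR11 (0.00371) and ATP5ME (0.00366).

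In complex IV, COX5A on chromosome 15 rose 1.61-fold to 122 ± 14.8 RPKM (SD, n = 3, limma adjusted p = 0.00432). Its neighbours had a median of 0.62, and after centring the call ended (adjusted p = 0.739). COX5B fell 1.17-fold, and its call (limma adjusted p = 0.0405) was kept after centring (0.0123) but ended whichever library was dropped (up to 0.16). SDHD of complex II fell 1.23-fold to 67.4 ± 6.37 RPKM (0.0309, window median -0.32), a call that ended after centring (0.93) and without each library but shHSF1 2 (up to 0.0831). Of 11 regulators of respiratory genes, PPARGC1A, the coactivator PGC-1alpha, fell 2.34-fold from 1.81 ± 0.306 to 0.773 ± 0.134 RPKM (limma adjusted p = 0.00312). Its window median was -0.30, and the call was kept after centring (0.0236). The other 10 were not called by that fit, which called 33.8% of all tested genes. Under the replicate block YY1 (0.16) and PPRC1 (0.20) were also called higher (adjusted p = 0.0387 and 0.0451). That fit called 26.2% of all tested genes higher.

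**Figure D4:**
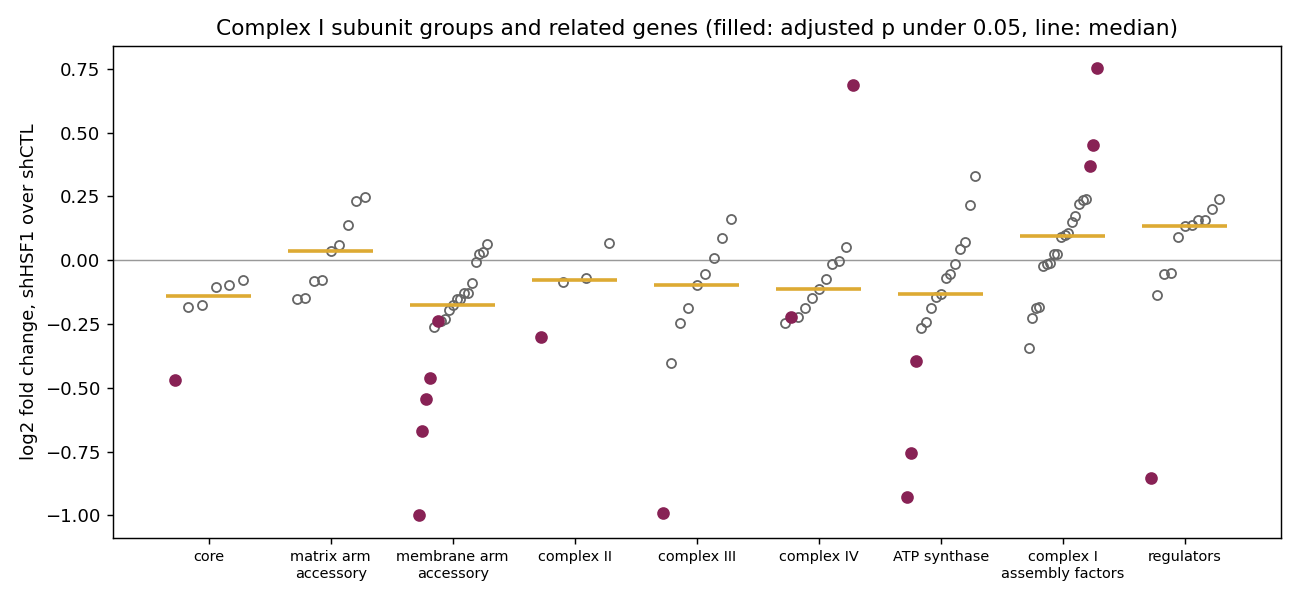
Log2 fold changes of the tested members of 3 complex I subunit groups and 6 related lists, 1 circle per gene, filled where the limma adjusted p was under 0.05, with a line at each median. The medians lie between -0.18 (membrane-arm accessory subunits) and 0.13 (regulators), and the filled circles of the complex I groups are all below 0.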

How the data were processed

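The authors deposited RPKM values per gene for 6 libraries. RNA extraction used a Qiagen kit and library preparation a KAPA mRNA kit, per the labels' protocols. Per the submitters' processing notes STAR, featureCounts and hg38 were used; the sources used here name no version, annotation release or strand setting. Control columns are named shScr where titles say shCTL, and were matched by number.

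RPKM times length in kb summed to 1000000 per column, and 100% of the values were whole multiples of 1 read (tolerance 0.01), so reads were recovered. For a gene of 1 kb, 3 reads are 0.0426 to 0.0883 RPKM, as counting error only. Tested subunits held at least 215 reads in every library.

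The fit covered genes that reached 0.5 RPKM in 3 or more libraries, and used limma 3.58.1 under R 4.3.3 (group alone, mean-variance trend, log2(RPKM + 0.5), two-sided, Benjamini-Hochberg over 12433 genes, threshold 0.05). Alternatives were a replicate block, leaving out each library, other filters and pseudocounts, median and quantile scaling, voom on recovered reads, and centring on 40 neighbours; centring with the block was added after seeing the data. Steps were tested on simulated data.

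Same-numbered libraries deviated together from their group means (r = 0.468, 0.307 and 0.451, other pairs -0.37 to -0.02). Deviations within a group sum to 0, so the negative values of other pairs follow in part from the positive ones. On the same-number values alone, the replicate block treated libraries of 1 number as pairs. The main fit, which gave the limma calls, left pairing out. Members, lists and motifs were chosen with earlier results of these data known. All 35 subunits are named. Related lists are given by counts with their called members named, NDUFAF1 is named for its chromosome, and other genes where they overlap a subunit or, picked after their values were seen, lie beside NDUFB9 or pass under the block alone. Promoter sequences are from RefSeq (GRCh38.p14), and pseudogenes from GENCODE v29, where 16 of 35 subunits have 1 or more by name (49 in all). Figures were drawn with matplotlib 3.10.9.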

Additional observations from a re-analysis of the deposited data

How the results depend on the processing

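The 5 largest falls (NDUFB9, NDUFB3, NDUFC1, NDUFS1 and NDUFA10) kept direction and call under the replicate block, each left-out library, both other filters and pseudocounts, both scalings and voom. The block gave 12 subunits lower and 1 higher, and 14 lower with centring added, and ended none of the 6 calls by itself. Leaving out 1 library gave 5 to 6 subunits lower and 0 to 1 higher, with a subunit median from -0.20 to -0.048 (both extremes are below 0, and the value nearest to 0 is without shHSF1 3), a median from -0.19 to -0.039 off chromosome 2, and from -0.49 to -0.45 on it. Over all genes it gave 1383 to 2374 higher and 1399 to 1943 lower. Centring took the chromosome 2 median to -0.0807, with and without the block. Centring turned the sign of NDUFS1 (0.066), NDUFB1 (-0.033), NDUFC2 (-0.054), NDUFS6 (-0.019) and NDUFV3 (-0.068), with the same values under the block. Of these NDUFS1 alone had been called. With a library left out, members that were not called changed sign within these ranges: NDUFA2 -0.0082 to 0.33, NDUFA9 -0.14 to 0.018, NDUFB4 -0.058 to 0.073, NDUFB5 -0.011 to 0.059, NDUFC2 -0.056 to 0.084, NDUFS3 -0.31 to 0.031, NDUFS7 -0.23 to 0.11, NDUFS8 -0.16 to 0.021, NDUFV1 -0.23 to 0.0995 and NDUFV3 -0.025 to 0.088. Without shHSF1 3 the sign turned for 7 subunits. The cause was not tested. No setting gives a value for chromosome 15, where none of the 35 subunits lies. Each tested subunit held at least 215 reads in every library, while NDUFA6, with 2 reads in all, could not be compared.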
